A study of Mus musculus with 23 samples.

Results

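Matrix metalloproteinases (MMPs) are zinc-dependent enzymes that cut proteins of the extracellular matrix and the cell surface, and tissue inhibitors of metalloproteinases (TIMPs) are small secreted proteins that bind the active site of these enzymes and block it. The 10 genes described here are Mmp2, Mmp3, Mmp9, Mmp10, Mmp12, Mmp13, Mmp14, Timp1, Timp2 and Timp3, of 18193 genes tested. They were chosen by name. Each is represented by the probe set (the group of array probes that gives 1 value) with the highest mean intensity over all 23 arrays, and all 10 were measured.

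The cells came from Lewis lung carcinoma (LLC), a mouse lung tumour line that can be transplanted, and 8 of its subclones were compared. All had been isolated from the parental line by limiting dilution, so each stands for 1 clone, and all were grown in medium with 10% serum and then kept in FreeStyle medium without serum for 24 h before total RNA was taken. Subclones 2, 3, 18, 19, 23, 24 and 28 had 3 Affymetrix arrays each and subclone 6 had 2. Arrays of 1 subclone are labelled as biological replicates, but what was separate between them is not said, so p-values measure the spread between these arrays. No parental sample was analysed here.

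Most MMPs are secreted as inactive proenzymes and become active when the propeptide is cut off by plasmin, by furin-like proteases or by another MMP. MMP3 and MMP10 are stromelysins of broad specificity, MMP13 is a collagenase, MMP12 is the elastase first known from macrophages, MMP2 and MMP9 are gelatinases that also cut basement membrane collagen, and MMP14 is anchored in the membrane and activates pro-MMP2. In tumours these enzymes are known for their part in invasion and in the release of growth factors from the matrix. Several MMP genes lie side by side on mouse chromosome 9, and the proximal promoters of many of them carry a site for AP-1, the dimer of FOS and JUN proteins.

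The promoters of the 4 neighbouring genes are shown first, because 3 of them (Mmp3, Mmp12 and Mmp13) had the widest ranges of the 10 genes and because their promoter windows share an arrangement of letters. Each line is the plus strand of RefSeq assembly GRCm38.p6, which is the coding strand of these genes, from 60 bases before the AP-1-like letters TGANTCA to the end of the letters TATAAA, those of a TATA box. Both are in capitals.
Mmp13 at chr9:7272419-7272503: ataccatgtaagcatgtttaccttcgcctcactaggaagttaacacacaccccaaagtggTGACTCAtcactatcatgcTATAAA
Mmp12 at chr9:7347270-7347383: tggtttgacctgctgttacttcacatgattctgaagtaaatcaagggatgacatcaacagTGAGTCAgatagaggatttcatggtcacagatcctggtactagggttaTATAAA
Mmp3 at chr9:7445716-7445820: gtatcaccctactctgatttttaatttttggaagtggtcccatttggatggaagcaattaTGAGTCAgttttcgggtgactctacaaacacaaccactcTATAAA
Mmp10 at chr9:7502219-7502318: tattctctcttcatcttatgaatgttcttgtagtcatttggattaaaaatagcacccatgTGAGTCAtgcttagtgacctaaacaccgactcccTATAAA

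In these stretches TGANTCA ended 12 bases before TATAAA in Mmp13, 41 in Mmp12, 32 in Mmp3 and 27 in Mmp10. Counted from the listed start as 0, the first base of TATAAA lay at -29 in Mmp10, -16 in Mmp13, -7 in Mmp3 and 4 in Mmp12, so that in Mmp12 it lay downstream of the start. The letters TGANTCA read the same on both strands. They occurred in 7.81% of the 32851 promoter windows of the RefSeq table (250 bases before to 50 after a start), TATAAA on either strand occurred in 13.6%, and TGANTCA at most 50 bases before TATAAA on the gene's strand occurred in 63 windows, or 0.192%. For Mmp12 and for Mmp7 the table lists 2 starts each, and the window of the other start held neither motif. The same arrangement was found in the windows of Mmp1a, Mmp1b and Mmp20 and in 1 of the windows of Mmp7, which lie in the same cluster, whereas those of Mmp8, Mmp27, Mmp14, Timp1, Timp2 and Timp3 held no TGANTCA. Windows of Mmp2 and Mmp9 were not among those read. The windows of cluster genes with this arrangement are among the 63, so the share of 0.192% is not separate from them. A match is a description of letters and shows no binding.

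Levels below are log2(intensity + 16), given as mean ± SD over the arrays of a subclone, and differences between subclones are in log2 units with the standard error (SE) from limma. Folds on this scale are too small for genes of low intensity. The deposited values carry no detection calls. A mean under 5.3 is called low here, against a 5th percentile of all probe sets on an array of 4.18 to 4.23. That percentile was 4.18 to 4.2 on the arrays of subclones 19, 23 and 24 and 4.21 to 4.23 on the others, a gap of hundredths of a log2 unit. The added 16 narrows this gap. As intensity, the percentile was 2.08 to 2.39 on the former arrays and 2.45 to 2.76 on the latter, without overlap. The labels do not say whether the arrays of subclones 19, 23 and 24 were processed apart.

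Of the 10 genes, 9 passed the F-test for any difference among the 8 subclones (limma, Benjamini-Hochberg adjusted p under 0.05 over all genes), but 61.8% of all genes did so too, and this share by itself says little about the family. The sizes were further from the background. A range of subclone means of at least 2 log2 units was reached by 6 of the 10 (Mmp3, Mmp12, Mmp13, Mmp9, Timp3 and Mmp10), against 2.56% of all genes. The count was 5 with a pseudocount of 64 (Mmp10 at 1.661) and also with the mean of all probe sets of a gene (Timp3 at 1.965). The median range of the 10 genes was 2.69 log2 units, against 0.49 over all genes. Between pairs of subclones, 217 of the 280 combinations of gene and pair passed (77.5%), against 35.9% over all genes and pairs (19% to 43.9% in single pairs). These backgrounds include genes that were low in every subclone, while all 10 members reached a mean of 5.3 in some subclone. Among only the genes that reached it, 50.5% of combinations passed, with 223 of the 280 for the members. The members and the pattern were known from earlier results on these arrays, so these shares are a description.

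Mmp3, the stromelysin-1 gene, had the widest range of the 10. Its level was 13.29, 13.3 and 13.34 in the arrays of subclone 2, 13.08, 13.1 and 13.12 in subclone 28, 12.72, 12.67 and 12.64 in subclone 3, and 12.5 and 12.49 in subclone 6. It was 11.3, 11.31 and 11.29 in subclone 23, 10.03, 10.22 and 10.2 in subclone 24, 9.92, 9.86 and 9.85 in subclone 18, and 7.18, 7.36 and 7.29 in subclone 19. No arrays of neighbouring subclones in this order overlapped, and all 28 pairs of subclones passed the test. Subclone 2 exceeded subclone 19 by 6.04 ± 0.05 log2 units (SE, adjusted p = 1.59e-22), or 65.6-fold, and the F-test gave an adjusted p of 3.32e-22. Even the lowest subclone, at 7.28 ± 0.09 (SD, n = 3), lay above the low mark. The gap between subclone 18 and subclone 19 (2.6 ± 0.05) was the widest single step, and that between subclones 3 and 6 (0.18 ± 0.056, adjusted p = 0.0272) the narrowest.

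Mmp13, the collagenase-3 gene, followed a similar order. Its arrays read 11.16, 11.26 and 11.24 in subclone 2, 11.07 and 10.99 in subclone 6, 10.99, 10.97 and 11.08 in subclone 3, and 10.28, 10.34 and 10.29 in subclone 28. The others read 8.48, 8.68 and 8.66 in subclone 24, 7.92, 7.52 and 7.58 in subclone 23, 7.21, 7.36 and 7.26 in subclone 18, and 6.19, 6.18 and 6.29 in subclone 19. Subclones 2, 3 and 6 formed a plateau: the step from 2 to 6 was 0.19 ± 0.091 (adjusted p = 0.15) and that from 6 to 3 was 0.01 ± 0.091 (adjusted p = 0.96). Below them every step passed, the widest being that from subclone 28 to subclone 24 (1.7 ± 0.081, adjusted p = 7.98e-12). The full range was 5 log2 units (4.996), or 31.9-fold, with an F-test adjusted p of 6.64e-19.

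Mmp12, the macrophage elastase gene, was the most graded of the cluster at its upper end. It read 10.41, 10.53 and 10.48 in subclone 2, 8.89 and 9.06 in subclone 6, 8.04, 8.09 and 8.03 in subclone 28, and 7.46, 7.3 and 7.4 in subclone 3. Values were 5.97, 5.54 and 5.63 in subclone 23, 5.16, 5.3 and 5.41 in subclone 24, 4.95, 4.49 and 4.84 in subclone 18, and 4.34, 4.8 and 4.64 in subclone 19. Subclone 2 stood 1.5 ± 0.14 above subclone 6 (adjusted p = 2.69e-07), and subclone 6 stood 0.92 ± 0.14 above subclone 28. In 3 subclones (24, 18 and 19) the mean was low, so the 58.9-fold range between subclones 2 and 19 (5.88 ± 0.125, adjusted p = 8.05e-17) has no firm lower end. Subclones 18 and 19, at 4.76 ± 0.24 and 4.59 ± 0.23 (SD, n = 3 each), did not pass the test against each other (adjusted p = 0.338), and their arrays overlapped. The order of subclones 18 and 19 is thus not resolved. Subclone 24 did pass against subclone 18 (0.53 ± 0.125, adjusted p = 0.00222) and against subclone 19 (0.7 ± 0.125, adjusted p = 0.000184).

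Mmp10, the stromelysin-2 gene, had the smallest range of the 4. Its arrays read 8.09, 8.07 and 7.98 in subclone 28, 8.2, 7.76 and 7.96 in subclone 3, 7.74 and 7.64 in subclone 6, and 7.55, 7.61 and 7.59 in subclone 2. Below these lay 6.8, 6.59 and 6.88 in subclone 23, 6.5, 6.55 and 6.5 in subclone 18, 5.73, 5.66 and 5.67 in subclone 24, and 5.65, 5.73 and 5.62 in subclone 19. Subclone 2, which had the highest mean of Mmp3, Mmp12 and Mmp13, was at rank 4 for Mmp10. Subclones 28 and 3 did not pass against each other (0.07 ± 0.084, adjusted p = 0.566), and neither did subclones 24 and 19 (0.02 ± 0.084, adjusted p = 0.912). The range from subclone 28 to subclone 19 was 2.38 ± 0.084, or 5.21-fold (adjusted p = 1.2e-13).

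**Figure D1:**
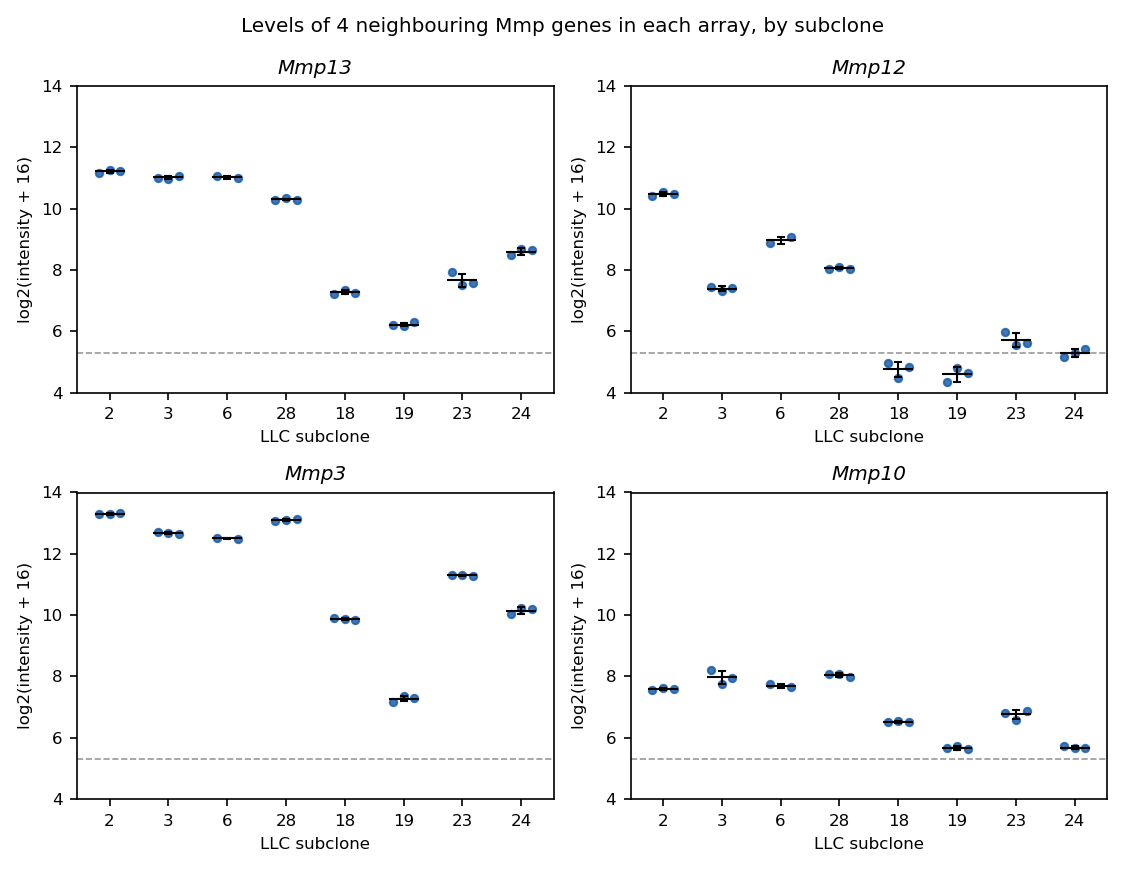
Levels of Mmp13, Mmp12, Mmp3 and Mmp10 as log2(intensity + 16) (vertical axis) in each LLC subclone (horizontal axis). Points are arrays, the black bar and whiskers are the mean ± SD, and the dashed line is the low mark of 5.3. In all 4 panels the arrays of subclones 2, 3, 6 and 28 lie above those of the other 4 subclones, with Mmp3 between 12.49 and 13.34 against 7.18 to 11.31.

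For each of these 4 genes, the 11 arrays of subclones 2, 3, 6 and 28 all lay above the 12 arrays of subclones 18, 19, 23 and 24. The gap ran from 12.49 to 11.31 for Mmp3, from 10.28 to 8.68 for Mmp13, from 7.3 to 5.97 for Mmp12 and from 7.55 to 6.88 for Mmp10. Timp1 also had this order, and the other 5 members overlapped. Over all genes, 1.62% had every array of these 4 subclones above every other array, and so did 10.3% of the 466 genes that passed the F-test and spanned 2 log2 units or more. This division of the subclones was read from the data and the labels do not name it, so it was not tested as a comparison of groups. It does match the order in which the samples are listed, with subclones 2, 3, 6 and 28 before 18, 19, 23 and 24. What that listing order stands for is not said. The order within each side was not fully shared: subclone 3 was at rank 3 for Mmp3, 4 for Mmp12, 3 for Mmp13 and 2 for Mmp10, while subclone 24 was at rank 5 for Mmp13 and 7 for Mmp10. Subclone 19 had the lowest mean of all 4 genes, but for Mmp12 and Mmp10 it did not pass against the next higher subclone. Over the 8 subclone means, Pearson's r was 0.91 for Mmp3 with Mmp13, 0.91 for Mmp12 with Mmp13, 0.9 for Mmp3 with Mmp10, 0.85 for Mmp3 with Mmp12, 0.85 for Mmp10 with Mmp13 and 0.8 for Mmp10 with Mmp12. Without the 2 subclones farthest from the median of the first-named gene, these were 0.82, 0.92, 0.95, 0.87, 0.91 and 0.72. These are descriptions over 8 points whose values share the same arrays.

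The 4 genes lie among 10 MMP genes in a row on chromosome 9, in the RefSeq order Mmp13, Mmp12, Mmp1b, Mmp3, Mmp1a, Mmp10, Mmp8, Mmp27, Mmp20 and Mmp7, of which 9 were measured. The first 6 of this row all passed the F-test and all had every array of subclones 2, 3, 6 and 28 above every other array. Mmp1a and Mmp1b, the mouse relatives of interstitial collagenase, did so at levels of at most 6.05. Mmp1a had means of 6.05 in subclone 3, 5.94 in subclone 2, 5.62 in subclone 6 and 5.42 in subclone 28. The others had 4.32 to 4.72, which is low. Mmp1b was at most 5.4 (subclone 2), with a range of 0.98, and its mean was low in every other subclone. Mmp8, Mmp20 and Mmp7 did not pass (adjusted p = 0.53, 0.0665 and 0.658), with highest means of 5.39, 5.18 and 4.81. Mmp20, and Mmp7 in the window of 1 of its 2 starts, also had TGANTCA before TATAAA. The letters read TGAGTCA in Mmp7 and TGAATCA in Mmp20, against TGAGTCA or TGACTCA in the 6 genes that differed.

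The genes next to the row were read for comparison. Of the 20 protein-coding genes next to it, 10 on each side, 13 passed the F-test (65%, against 61.8% of all genes) and 6 of these had a range of at least 1 log2 unit (12.7% of all genes passed with such a range), but 0 had the arrays of subclones 2, 3, 6 and 28 above all others. With 1.62% of all genes in that order, a count of 0 in 20 is at the background share. On the Mmp13 side, Dcun1d5 ranged from 10.83 to 11.5 and Dync2h1 from 7.4 to 8.16. Farther out, the inflammatory caspase genes Casp1, Casp4 and Casp12 had ranges of 2.34, 2.77 and 3.2, with their highest means in subclones 19, 28 and 18. On the Mmp7 side, Tmem123 did not pass (adjusted p = 0.0931) and Birc2, an inhibitor of apoptosis, ranged by 0.41. Its neighbour Birc3 ranged by 4.24, with its lowest mean, 4.76, in subclone 18. Over the 8 subclone means, r with Mmp3 was between -0.75 (Cep126) and 0.84 (Pgr, which did not pass the F-test) among the 20 neighbours, with 0.69 for Dcun1d5 and 0.16 for Birc3. Within the row it was 0.87 for Mmp1a, 0.85 for Mmp1b, 0.75 for Mmp7, 0.44 for Mmp8 and -0.29 for Mmp20.

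**Figure D2:**
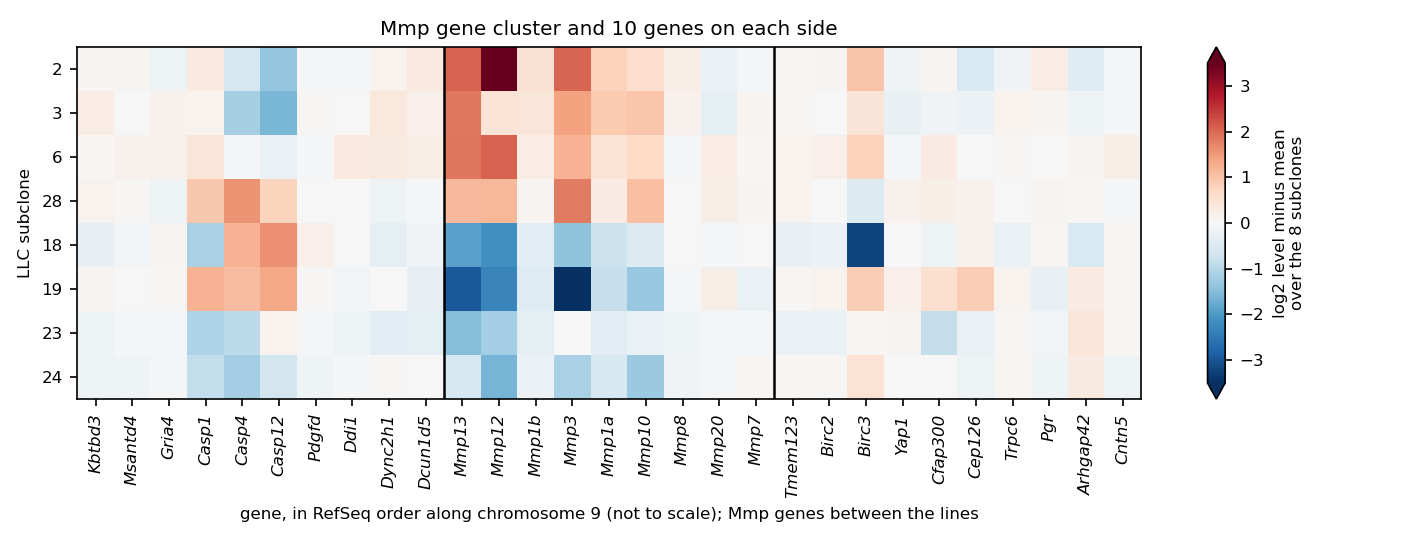
Subclone means of measured genes in RefSeq order along chromosome 9 (horizontal axis, not to scale), by LLC subclone (vertical axis), as the log2 level minus the gene's mean over the 8 subclones. Colours saturate beyond 3.5 log2 units, and lines enclose the MMP genes. From Mmp13 to Mmp10 the upper 4 rows are above the gene's mean, and the lower 4 are below it except Mmp3 in subclone 23, while the caspase genes and Birc3 outside the lines show other orders.

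Mmp9, the gelatinase B gene, lies on another chromosome and had another order. Its arrays read 8.95, 8.97 and 9.03 in subclone 28, 8.13, 8.19 and 8.19 in subclone 2, 8.09 and 7.88 in subclone 6, and 7.46, 7.37 and 7.62 in subclone 24. They read 7.27, 7.24 and 7.27 in subclone 19, 7.24, 7.04 and 7.09 in subclone 23, 5.86, 5.77 and 5.92 in subclone 3, and 5.27, 5.44 and 5.12 in subclone 18. Subclone 3 was thus next to last for Mmp9, 2.32 ± 0.079 below subclone 2 (adjusted p = 6.29e-13), though it stood with the high subclones for all 4 cluster genes. Subclones 2 and 6 did not pass against each other (0.18 ± 0.088, adjusted p = 0.159), nor did subclones 19 and 23 (0.14 ± 0.079, adjusted p = 0.207). The range was 3.71 ± 0.079, or 13.1-fold (F-test adjusted p = 3.35e-16), and its lower end, 5.28 in subclone 18, was low. A further Mmp9 probe set, dimmer throughout, had its highest mean (7.45) and its lowest (5.11) in the same subclones, with a range of 2.34 and r = 0.96 over the 8 means.

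Mmp2 and Mmp14, a gelatinase and its membrane-bound activator, varied least among the MMP genes chosen here. Mmp2 stayed near the low mark everywhere, between 5.28 ± 0.28 in subclone 19 and 5.63 ± 0.16 in subclone 18 (SD, n = 3 each), and single arrays lay between 4.97 and 5.86. It did not pass the F-test (adjusted p = 0.234). With the mean of both Mmp2 probe sets in place of the brighter one, it did (adjusted p = 0.0226, range 0.414). No subclone's arrays stood clear of those of its neighbours in the order.

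Mmp14 was bright in every subclone. Its arrays read 12.42, 12.44 and 12.29 in subclone 2, 12.29, 12.36 and 12.44 in subclone 28, 12.3, 12.31 and 12.23 in subclone 23, and 11.97, 12.04 and 11.99 in subclone 24. They read 12 and 11.82 in subclone 6, 11.88, 11.96 and 11.89 in subclone 18, 11.74, 11.85 and 11.78 in subclone 19, and 11.71, 11.74 and 11.83 in subclone 3. Of its 7 steps, 1 passed, from subclone 23 to subclone 24 (0.28 ± 0.056, adjusted p = 0.000563), which sets subclones 2, 28 and 23 apart from the rest. The range was 0.62 ± 0.056, or 1.54-fold (F-test adjusted p = 8.22e-09). Dimmer probe sets for Mmp14 gave wider ranges, 1.17 and 1.12, with r of 0.98 and 0.95 to the brightest one, and put subclone 19 and not subclone 3 at the bottom.

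Timp1, the inhibitor gene that growth factors and cytokines are known to induce, divided the subclones as the cluster genes did, but over a small range. Its arrays read 10.27, 10.34 and 10.39 in subclone 3, 10.25, 10.23 and 10.21 in subclone 28, 9.96, 9.99 and 10.03 in subclone 2, and 9.97 and 9.96 in subclone 6. They read 9.82, 9.75 and 9.81 in subclone 23, 9.69, 9.68 and 9.72 in subclone 24, 9.41, 9.4 and 9.44 in subclone 19, and 9.45, 9.41 and 9.33 in subclone 18. The gap between both sides was thus 9.96 to 9.82. From subclone 3 to subclone 18 the difference was 0.94 ± 0.04, or 1.91-fold (adjusted p = 7.75e-13). Its r over the 8 means was 0.87 with Mmp3, 0.87 with Mmp10, 0.87 with Mmp13 and 0.71 with Mmp12.

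Timp3, which binds to the matrix and also inhibits ADAM proteases, had the widest range of the inhibitors. Its arrays read 8.29, 8.07 and 8.2 in subclone 2, 7.91 and 7.86 in subclone 6, 7.59, 7.76 and 7.52 in subclone 3, and 7.53, 7.41 and 7.62 in subclone 24. They read 6.77, 6.93 and 6.96 in subclone 18, 6.43, 5.97 and 5.95 in subclone 23, 5.81, 5.58 and 5.66 in subclone 28, and 5.25, 5.31 and 5.03 in subclone 19. Subclone 28, at rank 2 for Mmp3, was next to last for Timp3, 2.5 ± 0.114 below subclone 2 (5.67-fold, adjusted p = 8.21e-12). Subclones 2, 6, 3 and 24 did not separate step by step (adjusted p = 0.107, 0.17 and 0.547), and each later step passed. Their pairs farther apart in this order did pass. Subclone 2 exceeded subclone 3 by 0.57 ± 0.114 (adjusted p = 0.000735) and subclone 24 by 0.67 ± 0.114 (adjusted p = 0.000118). Subclone 6 exceeded subclone 24 by 0.37 ± 0.127 (adjusted p = 0.0391). From subclone 2 to subclone 19 the difference was 2.99 ± 0.114, or 7.95-fold (adjusted p = 2.97e-13), with a low mean at the bottom. Among the 3 dimmer probe sets, those with ranges of 2.2 and 2.22 ran parallel (r = 1 and 0.99, rounded), and the dimmest, with means of 4.75 to 5.19, did not pass the F-test (adjusted p = 0.0829).

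Timp2, which inhibits MMPs and also takes part in the activation of pro-MMP2 by MMP14, was bright in every subclone and had its highest means in subclones 23 and 19. It read 12.77, 12.81 and 12.84 in subclone 23, 12.71, 12.76 and 12.76 in subclone 19, 12.63, 12.61 and 12.66 in subclone 24, and 12.62, 12.6 and 12.61 in subclone 28. It read 12.53, 12.56 and 12.62 in subclone 2, 12.49 and 12.51 in subclone 6, 12.5, 12.47 and 12.52 in subclone 18, and 12.21, 12.37 and 12.15 in subclone 3. The only neighbours in this order that passed were subclones 18 and 3 (0.25 ± 0.047, adjusted p = 0.000184). The range was 0.56 ± 0.047, or 1.48-fold (F-test adjusted p = 1.59e-07). Its r with Mmp13 was -0.61, with Timp3 -0.6 and with Mmp10 -0.56. All 5 other Timp2 probe sets had their highest mean in subclone 23, and 4 of them passed the F-test, with ranges of 0.47 to 0.74. Of these, 1 with means of 11.46 to 11.93 had its lowest mean in subclone 18, not subclone 3 (r = 0.6 to the brightest one). The dimmest, at 4.66 to 5.15, did not pass (adjusted p = 0.378).

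**Figure D3:**
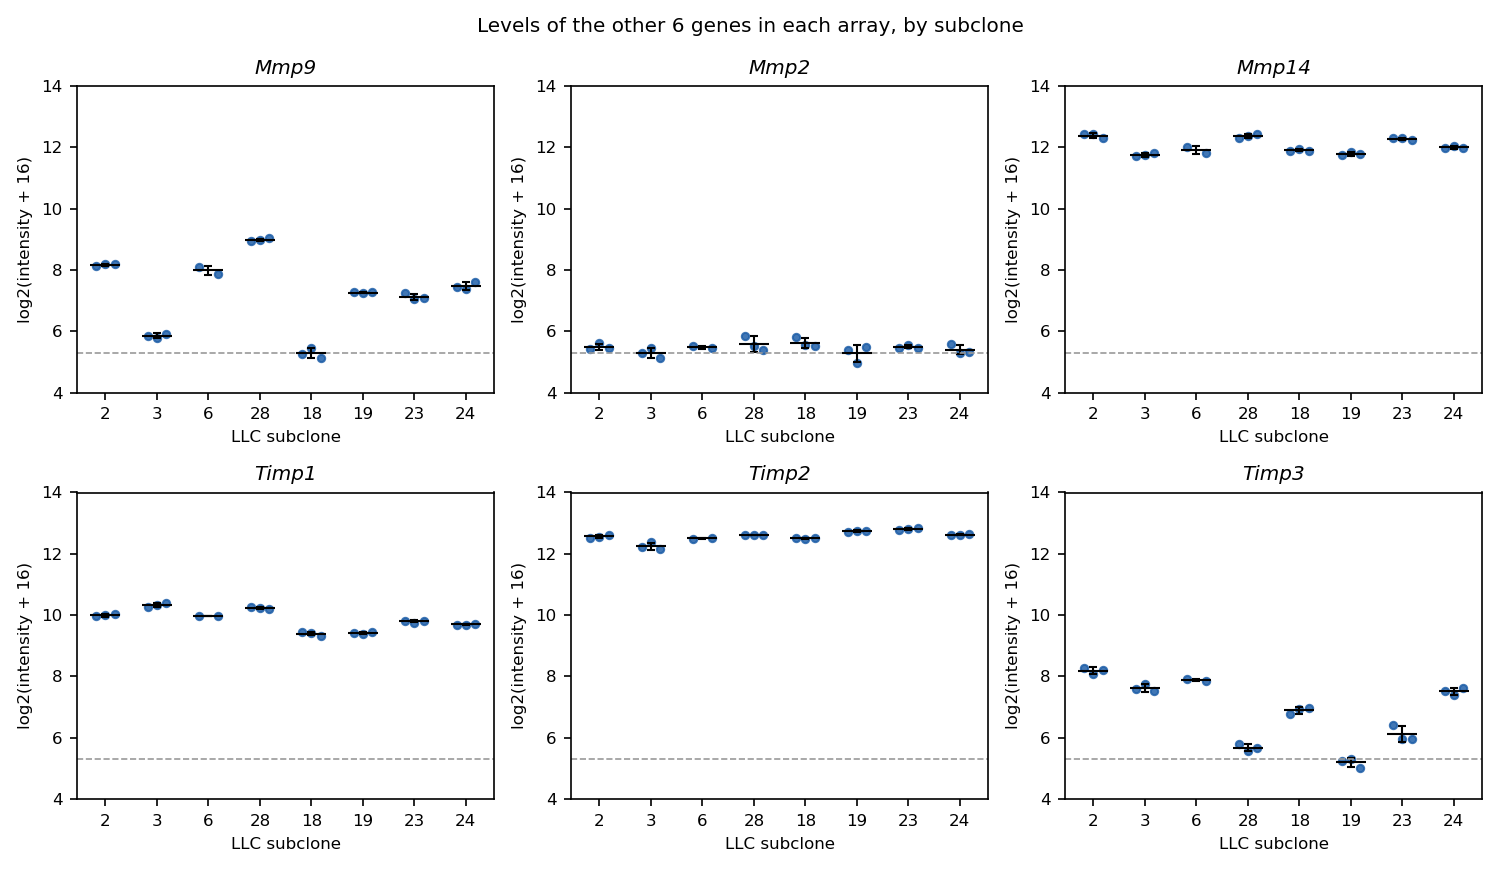
Levels of Mmp9, Mmp2, Mmp14, Timp1, Timp2 and Timp3 as log2(intensity + 16) (vertical axis) by LLC subclone (horizontal axis), with arrays as points, mean ± SD as bar and whiskers, and the low mark of 5.3 dashed. Mmp9 is lowest in subclones 18 and 3, Timp3 is lowest in subclones 19 and 28, and Mmp2 stays between 4.97 and 5.86 in every array.

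Steps between neighbours were picked by the order of the means, so their p-values describe resolution and are not a search for the largest effect. Of the 7 steps for each gene, 7 passed for Mmp3, 6 for Mmp12, 5 for Mmp13 and for Mmp9, 4 for Mmp10, Timp1 and Timp3, 1 for Mmp14 and for Timp2, and 0 for Mmp2. For Mmp2, 1 of the 28 pairs passed (subclones 18 and 19, adjusted p = 0.049).

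Against the mean of the other 7 subclones, the sides of the family can be counted. In subclone 2, 8 of the 10 genes were higher and 0 lower, where 15.4% of all genes were called higher and 20.6% lower. In subclone 6 there were 7 higher and 1 lower (13.8% and 10.2% of all genes), in subclone 28 again 7 and 1 (19.2% and 18.2%), and in subclone 3 there were 6 and 3 (19.4% and 18.6%). In subclone 18 there were 0 higher and 7 lower (21.5% and 21.6%), in subclone 19 there were 1 and 7 (24.2% and 17.7%), in subclone 23 there were 2 and 5 (20.3% and 17.4%), and in subclone 24 there were 2 and 5 (15.2% and 17.1%). These 8 contrasts share arrays. The gene that was higher in subclone 19 was Timp2 (0.19 ± 0.036, adjusted p = 0.000203), and the gene that was lower in subclone 28 was Timp3. In subclone 3, the lower genes were Mmp9, Mmp14 (-0.33 ± 0.043) and Timp2 (-0.38 ± 0.036).

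**Figure D4:**
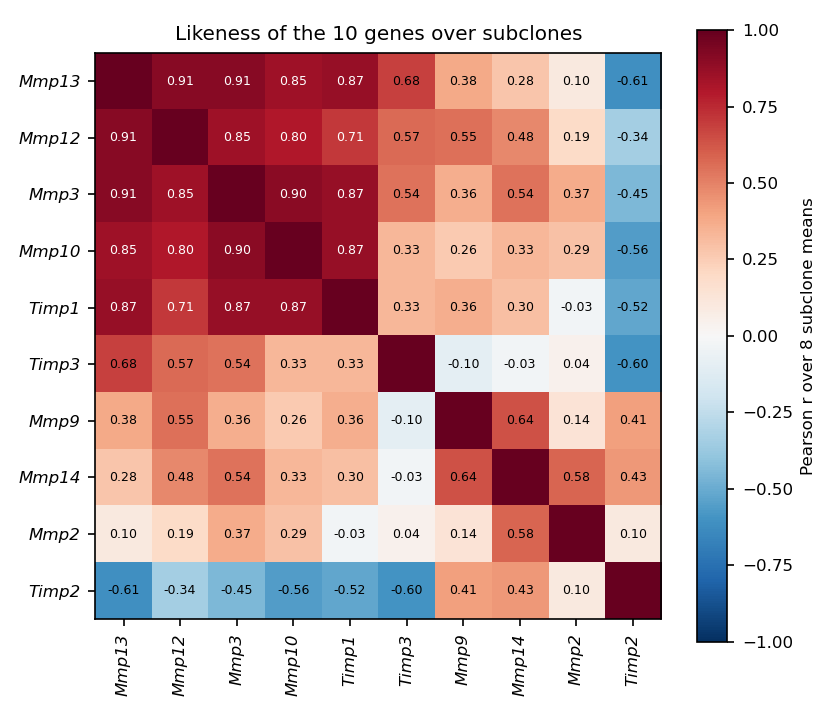
Pearson's r between each pair of the 10 genes over the 8 subclone means, from -1 to 1. The 4 neighbouring MMP genes and Timp1 form a block of r from 0.71 to 0.91, Mmp9 and Mmp14 have r = 0.64, and Timp2 has negative r with that block (-0.34 to -0.61).

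Genes with the most similar order were sought among 2309 genes that were not members, had passed the F-test and had a range of at least 1 log2 unit. By Pearson's r over the 8 subclone means, the likest to Mmp3 were BC028528 (0.982), Rnf141 (0.972) and Dact3 (0.969). Those for Mmp13 were Gm32031 (0.97), Sat1 (0.963), which acetylates polyamines, and Ppdpf (0.958). Those for Mmp12 were Fam20a (0.964), the cytokine gene Tslp (0.959) and Npc2 (0.952), which carries cholesterol out of lysosomes. For Mmp10 they were Fam107b (0.983), the interferon gamma receptor gene Ifngr2 (0.968) and Tnfsf11 (0.967). For Mmp9 they were Lgi2 (0.965), Gm5600 (0.905) and Mturn (0.904), and for Timp3 the neutrophil chemokine genes Cxcl5 (0.939) and Cxcl2 (0.913) and the retinoid binding protein gene Crabp1 (0.903). With this many candidates and 8 points, high values of r arise readily, and they are a description.

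Among 16 other MMP genes listed, 11 were measured and 6 passed the F-test (54.5%, against 61.8% of all genes), with a median range of 0.58. Against the mean of the others, the counts of higher genes were 4, 2, 2, 3, 2, 2, 1 and 0 in subclones 2, 3, 6, 28, 18, 19, 23 and 24, and the counts of lower genes were 1, 3, 0, 0, 4, 4, 2 and 4. Over all genes, 13.8% to 24.2% were called higher and 10.2% to 21.6% lower in a subclone. Besides Mmp1a, Mmp19, a basement membrane protease gene, had its highest mean, 8.08, in subclone 2 and its lowest, 6.59, in subclone 18. For Mmp11, the stromelysin-3 gene, these were 8.98 in subclone 23 and 7.94 in subclone 24. Of 10 measured genes for other MMP inhibitors and for clearance, 7 passed (70%, median range 0.75). Reck, a membrane-anchored MMP inhibitor, ranged from 7.56 in subclone 28 to 4.6 in subclone 18, where it was low and stood alone, since the other 7 subclones had 6.57 or more. Lrp1, the receptor that takes up MMPs and their complexes, ranged from 10.73 in subclone 23 to 9.28 in subclone 3.

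Of 18 measured genes around MMP activation, 15 passed (83.3%, against 61.8% of all genes, median range 0.59). In the order of subclones just given, where 13.8% to 24.2% of all genes were called higher and 10.2% to 21.6% lower in a subclone, 9, 6, 4, 9, 2, 4, 5 and 3 were higher and 2, 3, 1, 5, 11, 8, 8 and 5 were lower. Plau, the urokinase gene, whose product makes the plasmin that activates several MMPs, was at 10.6 to 10.82 in subclones 2, 3, 6 and 28 and at 7.96 to 9.14 in the other 4. Itgb3, a chain of the integrin that docks MMP2 on the cell surface, ranged from 6.89 in subclone 3 to 4.79 in subclone 18. Lcn2, whose product can bind MMP9, ranged from 11.04 in subclone 2 to 9.79 in subclone 6. Of 23 measured ADAM and ADAMTS protease genes, 15 passed (65.2%, median range 0.76), led by Adam8 (9.49 in subclone 19, 6.39 in subclone 24) and Adamts1 (10.79 in subclone 18, 8.43 in subclone 19).

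Of 29 measured genes for transcription factors known to act on MMP promoters, 22 passed (75.9%, against 61.8% of all genes, median range 0.68). In the same order of subclones, and against the same shares of 13.8% to 24.2% of all genes higher and 10.2% to 21.6% lower, 9, 6, 6, 18, 4, 6, 7 and 2 were higher and 4, 13, 3, 2, 13, 11, 7 and 13 were lower. Maff, a small MAF protein gene, was at 9.3 to 9.98 in subclones 2, 3, 6 and 28 and at 7.51 to 8.57 in the others. Fosl1, which encodes the AP-1 subunit FRA1, was at 11.69 in subclone 28, 11.16 in subclone 3, 11.14 in subclone 6 and 10.81 in subclone 2, against 10.34 to 10.77 in the others, so that subclones 2 and 23 were nearly level. Egr1, Cebpd and Etv5 had their highest means in subclone 28 (8.63, 12.23 and 10.35) and their lowest in subclone 24 (7.09, 10.73 and 9). Of 24 measured genes for ligands and receptors known to induce MMPs, 16 passed (66.7%, median range 0.93). Lif, Ereg and Hbegf were highest in subclone 28 (9.77, 11.16 and 11.16), and Egfr and Osmr were lowest there (6.61 and 7.01).

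Since MMP12 and MMP9 are also products of myeloid cells, markers of such cells were read beside them. Of 13 macrophage and monocyte markers measured, 8 had a highest mean under 5.3, among them the defining Ptprc (at most 4.7) and Adgre1 (at most 4.75). The other 5 were Cd14 (8 to 9.04), Csf1r (7.02 to 7.29), Cd68 (6.14 to 8.94), Lyz2 (5.73 to 7.99) and Mrc1 (4.81 to 5.42), with Cd68 highest in subclone 28 and Lyz2 in subclone 19. The summed level of the 13 lay between 9.28 in subclone 23 and 10.33 in subclone 19, and in subclone 2, where Mmp12 was highest, it was 9.71. Of 7 neutrophil markers, 5 were under 5.3 throughout, S100a8 and Camp reached 6.52 and 5.75, and the sum lay between 6.97 and 7.34. Of 6 carcinoma epithelium markers, the keratin genes Krt8 and Krt18 were at 5.7 to 11.29 and at 10.82 to 11.97. The lowest Krt8 mean was that of subclone 18. Epcam was at 7.05 to 7.99, Krt19 at 5.06 to 7.16 and Krt7 at 5.01 to 5.45, and Cdh1 was at most 4.58. Of the 6 lung epithelial markers, Nkx2-1 (at most 4.43) and Sftpa1 (at most 4.72) were low in every subclone, Sftpb was at 6.48 to 6.68, and Sftpc, Scgb1a1 and Sftpd reached 5.57, 5.45 and 5.37. Of 8 mesenchymal markers, Acta2, Pdgfra and Dcn were at 8 or more in every subclone, Col1a1, Thy1 and Postn were at most 4.91, 5 and 4.86, Col1a2 was at 5.91 to 6.15 and Lum at 4.74 to 7.03. The summed level of the 8 lay between 11.48 in subclone 19 and 12.84 in subclone 28. Of 6 endothelial markers, 3 were under 5.3 throughout, and Tie1, the highest, reached 5.77. The part of these levels in the differences of the MMP genes was not tested.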

How the data were processed

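Total RNA of 8 LLC subclones was measured on 23 Affymetrix arrays. The authors deposited linear intensities, 1 per probe set and array (0.61 to 17068.52). The algorithm, its scaling and its genome build were not given in the sources used here. Array medians lay between 40.83 and 45.74. No array was a copy of another. Precision is limited by the number of arrays.

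The scale used was log2(intensity + 16). Of 45101 probe sets, 64 controls were left out, 34945 others had 1 gene symbol, 932 had several and 9160 were unlisted and stayed unnamed. Symbols were updated by Entrez identifier through RefSeq (GRCm38.p6) for 34741, and the brightest probe set per gene gave 18193 genes. No filter was applied. RefSeq also gave gene order and promoter sequences.

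A linear model with a mean per subclone was fitted to all genes with limma 3.58.1 in R 4.3.3 (15 residual degrees of freedom), with a moderated F-test, contrasts of each subclone with the mean of the other 7, and 28 pairs. P-values were Benjamini-Hochberg adjusted over all genes within each contrast. On simulated data with 200 of 18193 genes changed by 1 log2 unit in 1 subclone, the F-test recovered 192 and called 12 others.

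The members and lists were chosen with earlier results of these data known. Named genes are the 10 members, listed genes that passed the F-test, spanned 1 log2 unit or more and reached a highest mean of 5.3 (up to 5 per list; some are not printed), the Mmp row with 10 genes on each side, and the 3 likest genes of each member with a range of at least 2 log2 units. Markers were read as fixed lists. Alternatives were pseudocounts of 1 and 64, a filter at 5.3, quantile normalization, the mean of all probe sets, a variance trend with robust priors, replicate number as a block, and leaving out each array.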

Additional observations from a re-analysis of the deposited data

How the results depend on the processing

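The F-test called 9 members under every alternative except the mean of all probe sets (10, with Mmp2), and over all genes it called 10919 to 11337 under the other settings and 11047 to 11402 without single arrays. Member calls over pairs of subclones stayed between 211 and 223, and the share of all gene and pair combinations was 50.5% with the filter. The 5 members whose arrays in subclones 2, 3, 6 and 28 lay above all others were the same 5 under all 30 alternatives. Only quantile normalization could have removed a gene from these 5. A pseudocount keeps the order of arrays within a gene, and leaving out an array cannot break that order. The filter, the priors and the block leave the values unchanged, and each of the 5 genes has 1 probe set. The lowest r among the 4 cluster genes, 0.797, was 0.822 with a pseudocount of 1, 0.737 with 64 and 0.804 after quantile normalization, and 0.79 to 0.804 without single arrays. The count of members with a range of at least 2 log2 units, 6, was 5 with a pseudocount of 64 (without Mmp10, 1.661) and with the mean of all probe sets (without Timp3, 1.965). That mean also widened the range of Mmp14 from 0.62 to 0.962. The range of Mmp12 was 7.332 with a pseudocount of 1 and 4.344 with 64. The count of pairs called for Mmp2 was 0 to 3, so its single call is not stable. After quantile normalization, Mmp14 was highest in subclone 28, level with subclone 2, and Timp1 lowest in subclone 19, level with subclone 18. With the replicate number as a block, 9 members passed and 214 member pairs were called. Same-numbered arrays of different subclones had a median correlation of deviations of 0.00 (-0.38 to 0.42), and 6 of 23 arrays correlated best with their own number, so the numbers do not pair the arrays. Without an array of subclone 6, its other array is assumed to vary like the rest. Low signals limit the lower ends of Mmp12, Mmp9 and Timp3.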

Other observations

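Among 16 measured genes for matrix proteins that MMPs are known to cut or release, 13 passed the F-test (81.2%, against 61.8% of all genes), with a median range of 0.65. In subclones 2, 3, 6, 28, 18, 19, 23 and 24, 6, 5, 3, 8, 2, 4, 6 and 7 were higher than the mean of the others (13.8% to 24.2% of all genes) and 3, 8, 2, 3, 7, 6, 2 and 2 were lower (10.2% to 21.6%). Dcn, the gene of the proteoglycan decorin, ranged from 12.2 in subclone 2 to 8.59 in subclone 19. Subclones 28, 6 and 3 had 11.93, 11.34 and 10.08. Bgn, the related biglycan gene, had 5.59 in subclone 18 and 4.85 in subclone 19, while the other 6 subclones had 12.38 or more. Tnc (tenascin C) and Lamc1, a laminin chain gene, both peaked in subclone 28, at 6.38 and 11.24. Tnc was lowest in subclone 19 (4.88) and Lamc1 in subclone 23 (9.84). Vcan (versican) ran differently, with 10.84 in subclone 24 and 9.72 in subclone 28.

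Thbs1, the thrombospondin gene, was highest in subclone 18 (7.75) and lowest in subclone 19 (5.68), and Pcsk6, a furin-like protease gene, had 6.44 in subclone 18, and no other subclone exceeded 5.73. Adam19 had 5.6 in subclone 18, 5.66 in subclone 19 and 6.18 in subclone 6, against 6.77 or more elsewhere.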
